A study of Triticum turgidum subsp. durum with 24 samples.

Results

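The response of the durum wheat (Triticum turgidum) cultivar Ofanto to drought stress (DS) was measured in flag leaves on 6 Affymetrix GeneChip Wheat Genome Arrays out of 24 in the series, 3 from DS plants and 3 from control (Ctrl) plants. Arrays were chosen by their titles alone. DS pots were brought to a soil water content of 12.5% at the booting stage and Ctrl pots were held at 28%, at one and the same temperature. Cappelli, the other cultivar of the study, gave 3 DS and 3 Ctrl arrays of its own, and these serve below to test whether a response of Ofanto differed from that of another durum wheat. Ofanto arrays of heat and combined stress share the Ctrl arrays used here. They and the Cappelli heat and combined stress arrays entered only the filter that chose which PSs were tested and the model's estimate of spread. The leaf was the flag leaf per the paper, while the free-text labels speak of fully expanded leaves, and neither says how many plants were pooled per array. P-values therefore measure the spread between these samples, part of which may be technical.

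Plants that lose water accumulate abscisic acid (ABA), a hormone that closes stomata and switches on a large set of protective genes. Among these are dehydrins and late embryogenesis abundant (LEA) proteins, which are hydrophilic and thought to shield membranes and enzymes, lipid transfer proteins (LTPs), which carry wax monomers towards the leaf surface, and the enzymes that make proline, an osmolyte. Type 2C protein phosphatases (PP2Cs) act in the opposite direction as brakes on the ABA pathway, and in Arabidopsis their transcripts are themselves raised by ABA.

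Each transcript is read on the array by a probe set (PS), a group of short oligonucleotides, whose ID suffix carries meaning: PSs ending in _s_at or _x_at hold probes that can pair with several similar transcripts, as happens with gene families and with the homoeologous copies of a polyploid wheat. The sequences behind the PSs were not used here, but the qRT-PCR primers designed for some of them show the point. The forward primers for 2 PSs of one cluster, both named as cold regulated protein, share a run of 19 bases, printed in capitals.
CRP-TM forward: gaTTTTGACACTCGGCTCTGT
Cold regulated protein forward: TTTTGACACTCGGCTCTGTg
The dehydrin DHN7, one of the risen dehydrins described below, had primers of its own, every base of which is meant to pair with a strand of its cDNA.
DHN7 forward: GCCACCTCTTGCAGAATAATAAGAT
DHN7 reverse: ATTCAAGTCCACAAAACTCAGAACTC
The last sequence belongs to HEL (high expression level), a transcript to which the study could assign no function. Its cDNA was sequenced over 223 bp in the study, and the capitals mark the forward primer, at bases 50 to 71 from the 5′ end, and the site of the reverse primer, at bases 120 to 145.
HEL cDNA: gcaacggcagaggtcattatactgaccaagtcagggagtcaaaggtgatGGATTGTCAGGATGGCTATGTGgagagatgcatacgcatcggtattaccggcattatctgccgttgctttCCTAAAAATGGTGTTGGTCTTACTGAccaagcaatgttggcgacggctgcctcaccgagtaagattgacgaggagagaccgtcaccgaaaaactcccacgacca

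Deposited values were MAS5 signals on a linear scale. Of 61179 PSs, 28072 (45.9%) were kept, those for which every one of the 3 arrays in at least 1 of the 8 groups exceeded that array's 60th percentile of signal. This percentile was 132 to 142 signal units on the DS arrays and 134 to 144 on the Ctrl arrays. Below that percentile a signal is near background, and where all 3 arrays of a group were below it only a lower bound of the fold is given ("at least"), computed against the percentile itself. Leaf RNA was checked with the photosynthesis and chlorophyll list, of which 41 of 43 PSs lay above the percentile on each of the 6 arrays, with a median signal of 7830 to 8450 on DS arrays and 8430 to 10000 on Ctrl arrays.

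Replicates resembled each other more than they resembled the other group. The mean absolute log2 difference between 2 arrays was 0.366 to 0.381 within DS and 0.401 to 0.424 within Ctrl, against 0.555 to 0.593 between a DS and a Ctrl array. This bears on a conflict in the labels, since the free-text descriptions of Ctrl replicates 2 and 3 carry the drought treatment while their titles say control. On these distances both lay nearer to Ctrl replicate 1 (0.420 and 0.424) than to any DS array, and they were kept as Ctrl.

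One measure of the arrays moved with the treatment. The array carries control PSs for both ends of some wheat transcripts, and the 3′ minus 5′ log2 difference is a check of how complete the labelled RNA was. Averaged over the 3 pairs with a bright 3′ end, it was 1.52, 1.2 and 1.34 on the DS arrays, against 2.27, 2.43 and 2.29 on the Ctrl arrays, with no overlap. The sucrose synthase pair gave 3.58 ± 0.18 in DS and 5.44 ± 0.45 in Ctrl (SD, n = 3 each), and the glucose-6-phosphate dehydrogenase pair 1.57 ± 0.35 in DS and 2.51 ± 0.12 in Ctrl. The mean 5′ signals of both lay below the 60th percentile in Ctrl, averaging 448 in DS and 121 in Ctrl for sucrose synthase and 249 in DS and 123 in Ctrl for the dehydrogenase, so the Ctrl differences of both have no exact size. The bright ubiquitin pair gave -1.10 ± 0.06 in DS and -0.96 ± 0.10 in Ctrl. With the 3-pair mean as a covariate, 19 PSs were called in place of the 1067 below. Some log2 changes were larger in that fit, such as 4.31 for CRP-TM and 2.65 for P5CS (adjusted p of 0.26 and 0.073). Others were smaller, such as 1.41 for the more changed RD22 PS and -0.55 for ProT1 (adjusted p of 0.52 and 0.83). MYB4, P2C-HA, the PS annotated as LEA protein, TPA and the most risen unnamed PS, all described below, kept their calls in it. With the ubiquitin pair alone 875 were called, and with the mean of 7 pairs 978, both settings chosen after the data were seen. The 7-pair mean did not overlap either, at -0.63, -0.92 and -0.01 on the DS arrays and 0.2, 0.13 and 0.32 on the Ctrl arrays. The ubiquitin difference was -1.17 to -1.04 on DS arrays and -1.04 to -0.84 on Ctrl arrays, the groups touching at -1.04. Drought cannot be told apart from the 3-pair or the 7-pair difference on these 6 arrays.

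A PS was called where it differed by 2-fold or more with a limma adjusted p (Benjamini-Hochberg, all kept PSs) under 0.01. By this rule 1067 PSs, 3.8% of those tested, differed between DS and Ctrl. Of these 750 (2.67%) rose and 317 (1.13%) fell. Large changes, counted by fitted fold, were rarer. By at least 4-fold 161 PSs rose and 103 fell, and by at least 16-fold 20 rose and 5 fell. These folds have no exact size where a group was near background. That held for Ctrl in 199 of the risen PSs and for DS in 90 of the fallen ones. Both groups were near background in 50 called PSs. In 747 of the risen and all 317 of the fallen PSs no DS array overlapped a Ctrl array, set against 39.8% of all kept PSs without overlap. The median change over all kept PSs was 0.008 on the log2 scale. Calls came from every range of signal, at 2.88% of the 7018 dimmest and 3.32% of the 7018 brightest PSs.

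**Figure D1:**
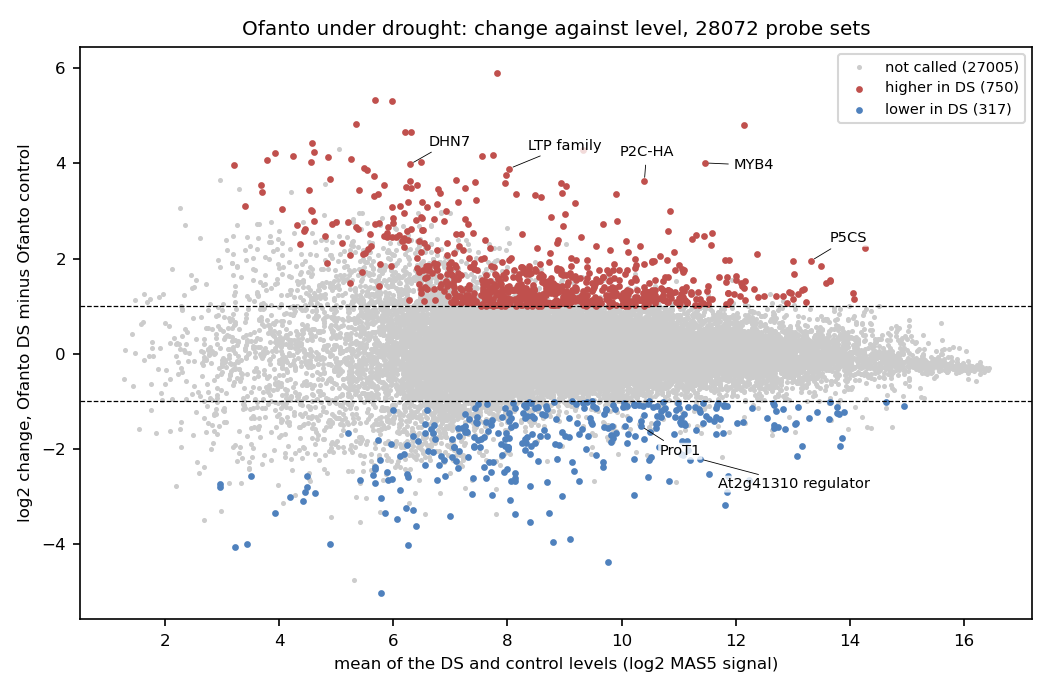
Log2 change (Ofanto DS minus Ofanto Ctrl) against the mean of both log2 levels for 28072 PSs, with dashed lines at a 2-fold change. The 750 risen PSs (red) outnumber the 317 fallen ones (blue), and MYB4 (4.01) and P2C-HA (3.62) are labelled among them.

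Names are available for few of these PSs. Gene names and Arabidopsis codes are those of the best Arabidopsis match in the paper and its tables, so a name states a sequence similarity, and those tables list only PSs that the authors had called on these same arrays. Only a part of them was at hand, with 3155 PSs, so a list below can miss PSs of its family. An informative name was at hand for 2037 kept PSs, of which 5.65% were called, against 3.66% of the others, and for 95 of the risen and 20 of the fallen PSs. The counts of lists below rest on these named PSs and are no independent evidence of direction, and shares near 5.65% or the 3.8% of all kept PSs are no result about a list.

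Of the 29 measured PSs of the ABA list 6 rose, 1 fell and 22 were not called (24.1% called), with a median change of 0.19, against 0.01 over all kept PSs. P2C-HA (At1g72770), a PP2C that restrains ABA signalling in Arabidopsis, gave signals of 4970, 4630 and 4580 on DS arrays, against 471, 303 and 397 on Ctrl arrays. The groups were far apart, and the log2 change was 3.62 ± 0.22 (SE, adjusted p = 1.1e-08). A second PP2C (At2g29380) stood at 2020, 1780 and 1530 in DS and at 179, 112 and 177 in Ctrl, a log2 change of 3.53 ± 0.37 (adjusted p = 6e-06). HVA22e (At5g50720), whose barley relative HVA22 is induced by ABA, had signals of 1250, 1190 and 1110 in DS, against 158, 150 and 179 in Ctrl, and rose by 2.87 ± 0.19 (adjusted p = 2.9e-08). All arrays of both groups were tight for this PS. The G-box binding factors GBF4, GBF2 and GBF3, bZIP proteins that bind the G-box of many promoters, rose by 1.99, 1.47 and 1.43 log2 units, GBF4 with Ctrl arrays near background (at least 2.65-fold). One further PP2C-related PS (At3g16560) went the other way, with 3490, 3160 and 3330 in DS and 7560, 7510 and 7100 in Ctrl (log2 change -1.15 ± 0.14, adjusted p = 2.1e-05).

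Dehydrins, LEA proteins and other dehydration proteins rose in 14 of 48 measured PSs and fell in 1 (31.2% called), with a median change of 0.42. HVA22e of the ABA list is also among the 14. The dehydrin DHN7, whose Arabidopsis match is RAB18 (At5g66400), had signals of 332, 309 and 294 in DS. On Ctrl arrays it stood at 7.80, 18.1 and 54.0, all near background, so that its rise was at least 2.22-fold (adjusted p = 0.0003). CRP-TM stood at 1980, 1650 and 1510 in DS and at 179, 53.1 and 298 in Ctrl (log2 change 3.58 ± 0.57, adjusted p = 0.00034). Its 3 Ctrl arrays were scattered, yet all lay below the DS arrays. The best Arabidopsis match of this cluster is a phosphatidylethanolamine-binding protein, so the name rests on a wheat annotation. The PS annotated as LEA protein gave 2720, 2530 and 2370 in DS and 377, 430 and 306 in Ctrl, a change of 2.79 ± 0.22 (adjusted p = 1.8e-07), and LTI30, a dehydrin of cold and drought, gave 1380, 1340 and 1100 in DS and 186, 265 and 158 in Ctrl, a change of 2.68 ± 0.20 (adjusted p = 9.3e-08). RD22, a gene whose drought induction in Arabidopsis runs through ABA, was read by 2 PSs that rose by 2.13 and 1.89. LEA14 rose by 1.60, COR47 by 1.21 and HVA22 (At4g36720) by 1.07, the last of these losing its call without Ctrl replicate 1, where the change was 0.97. COR47 and HVA22 each had another kept PS, at 0.81 and 0.22, that was not called. RD21A and RD19A, which the study counted among these genes and which encode cysteine proteases, rose by 1.82 and 1.30. The one PS that fell was an LEA3 family member (At4g02380) with 946, 1110 and 996 in DS and 1990, 2100 and 2010 in Ctrl (log2 change -1.0 ± 0.21, adjusted p = 0.0031), and its call was lost without any single array other than DS replicate 2 (adjusted p 0.011 to 0.016).

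Of 22 PSs for LTPs and cuticle, 8 rose and none fell (36.4% called, median change 0.35), and 1 of the 8, an LTP3 PS (At5g59320), was near background in both groups. The LTP that matched At3g18280 was read by 3 PSs, all of which rose. On the most changed of them, signals were 1050, 1080 and 907 in DS and 77.5, 57.1 and 70.8 in Ctrl. The Ctrl arrays were near background, and the rise was at least 7.2-fold (adjusted p = 5.5e-09). LTP4 (At5g59310) was read by 3 kept PSs, with changes of 0.15 to 1.95, and 1 was called. The called PS was bright in both groups, at 19000, 14300 and 15600 in DS and 4370, 4670 and 3570 in Ctrl, and rose by 1.95 ± 0.29 (adjusted p = 0.00019). LTP1 (At2g38540) rose by 2.41. A fatty acyl CoA reductase (At5g22500), of a family that makes the primary alcohols of waxes and suberin, gave 302, 349 and 305 in DS and 107, 81 and 90.2 in Ctrl, a rise of at least 2.27-fold (adjusted p = 2.8e-05). The other kept PS of this reductase had a log2 change of -0.36 and was not called. At5g59320 (LTP3) was read by 7 kept PSs, with changes of -0.81 to 2.31, and 1 was called. The PS that the study names had 660, 537 and 432 in DS and 153, 126 and 87.4 in Ctrl, and missed the threshold in spite of groups that did not overlap (log2 change 2.17 ± 0.58, adjusted p = 0.017).

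**Figure D2:**
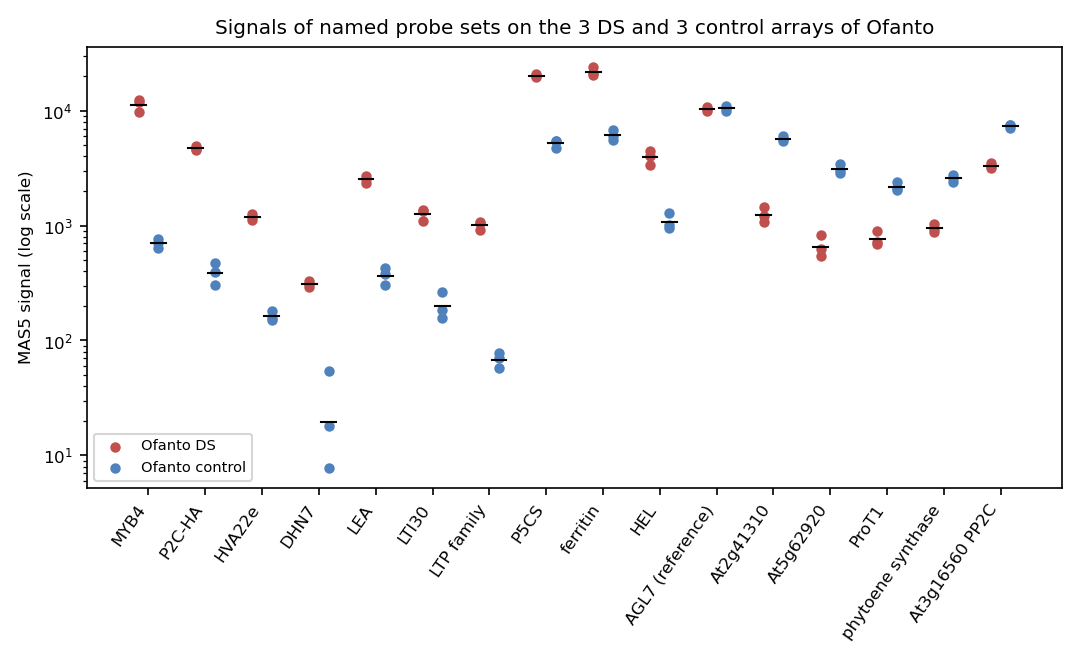
MAS5 signals (log axis) of 16 PSs on the 3 Ofanto DS arrays (red, left) and the 3 Ofanto Ctrl arrays (blue, right), with a bar at the geometric mean of each group. Groups overlap only for AGL7, a qRT-PCR reference gene (9970 to 10800 in DS and 9910 to 11000 in Ctrl).

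In proline metabolism a PS for P5CS and one for P5CR rose, while one for the transporter ProT1 fell. P5CS (At3g55610), the rate-limiting enzyme of proline synthesis from glutamate, had signals of 19500, 20900 and 20100 in DS, against 5460, 5410 and 4760 in Ctrl (log2 change 1.95 ± 0.24, adjusted p = 3.2e-05). P5CR (At5g14800), which completes the pathway, gave 2430, 2370 and 2910 in DS and 1080, 1160 and 1310 in Ctrl, a change of 1.12 ± 0.16 (adjusted p = 0.00014). Both steps were thus higher on every DS array. Of 3 kept PSs for a subunit of branched-chain keto acid dehydrogenase (At5g09300), 2 rose by 1.59 and 1.51, and the other, at 1.04, was not called. Another subunit of this complex (At3g06850) was read by PSs at 0.58 and -0.13, neither of them called. ProT1 (At2g39890), which carries proline across membranes, fell to 727, 892 and 693 in DS, against 2380, 2060 and 2140 in Ctrl (log2 change -1.52 ± 0.29, adjusted p = 0.0015). Threonine ammonia-lyase (At3g10050), the entry to isoleucine synthesis, changed by -1.03, and its call was lost without DS replicate 1, where the change was -1.0. On the whole list 6 of 34 PSs rose and 2 fell (23.5% called).

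Sucrose synthase (At4g02280), which cleaves sucrose, was read by 3 kept PSs and all of them rose. The most changed one stood at 1070, 1200 and 1050 in DS and at 284, 261 and 280 in Ctrl (log2 change 2.01 ± 0.14, adjusted p = 5.2e-08), and the others rose by 1.60 and 1.2. Hexokinase 1, which phosphorylates glucose and in Arabidopsis also senses it, gave 1980, 1830 and 1890 in DS and 564, 537 and 699 in Ctrl, a change of 1.67 ± 0.17 (adjusted p = 4.3e-06). None of the 29 PSs for sugars, starch and fructan fell and 4 rose (13.8% called). The fructan-making 6-SFT had 156, 205 and 143 in DS and 314, 242 and 127 in Ctrl, with overlapping groups and no call (adjusted p = 0.63). Among transporters, 5 of 80 rose and 2 fell (8.75% called), with a median change of -0.07. A hexose transporter (At1g67300) rose by 1.34 on 1 of its 2 kept PSs, while the other, at 0.64, was not called. For delta-TIP, an aquaporin of the vacuole membrane, 3 of 5 PSs rose by 1.09 to 1.13. The one at 1.09 lost its call without DS replicate 1 or 2 or Ctrl replicate 2 or 3 (adjusted p 0.010 to 0.016).

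Transcription factors rose in 7 of 60 measured PSs and none fell (11.7% called), with GBF4 and GBF2 of the ABA list among the 7. MYB4 (At4g38620), a repressor of phenylpropanoid genes in Arabidopsis, had signals of 11900, 12400 and 9810 in DS, against 699, 771 and 638 in Ctrl (log2 change 4.01 ± 0.17, adjusted p = 1.2e-10). A NAC family PS (At3g15510) gave 62.5, 87.4 and 90.1 in DS and 1.89, 10.8 and 4.26 in Ctrl, near background in both, so that no fold is given. A heat shock factor, RHSF11, rose by 1.87 ± 0.30 (adjusted p = 0.00035), with no overlap between DS and Ctrl arrays. RAP2.12 (At1g53910), an ethylene response factor known in Arabidopsis for its role in low-oxygen responses, was read by 3 PSs, 1 of which rose by 1.44.

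Of 16 PSs for cytokinin, auxin, ethylene and gibberellin response 1 rose, 2 fell and 13 were not called (18.8% called, median change -0.01). The 2 that fell were type-A response regulators, which cytokinin induces and which in turn dampen its signal. RR3 (At2g41310) fell to 1070, 1450 and 1220 in DS, against 5640, 6010 and 5470 in Ctrl (log2 change -2.21 ± 0.45, adjusted p = 0.0025). ARR6 (At5g62920) fell to 542, 836 and 627 in DS, against 3070, 3450 and 2850 in Ctrl (log2 change -2.24 ± 0.51, adjusted p = 0.0059). DS and Ctrl arrays were well separated for both. The call of RR3 was lost without DS replicate 1 or 3 or Ctrl replicate 1 or 2 (adjusted p 0.010 to 0.014), and that of ARR6 without any one of the 6 arrays (adjusted p 0.013 to 0.028). EIN2, a hub of ethylene signalling, rose by 1.10, and its call too was lost without any one array (adjusted p 0.010 to 0.024).

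**Figure D3:**
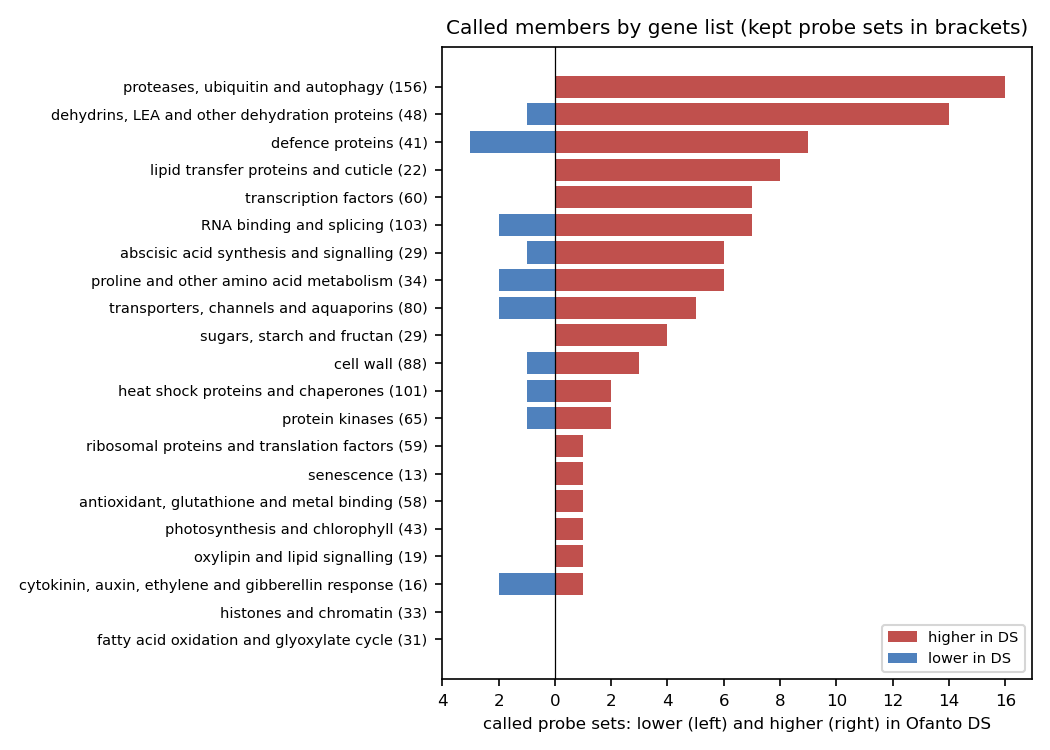
Number of PSs called higher (right, red) and lower (left, blue) in Ofanto DS for 21 gene lists, with the number of measured PSs in brackets. Rises outnumber falls in most lists, and histones and fatty acid oxidation have no call.

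Defence proteins moved in both directions, with 9 of 41 up and 3 down (29.3% called), and 4 of the 9 also stand among the LTPs above because their annotation names both. The thaumatin-like protein, of a family with antifungal members, had signals of 1030, 1660 and 1640 in DS and 203, 157 and 199 in Ctrl (log2 change 2.93 ± 0.30, adjusted p = 4.3e-06). Osmotin (OSM34), of the same family, rose by 1.27. A disease resistance-responsive protein (At5g42510) fell to 1220, 1480 and 1710 in DS, against 4610, 4410 and 4220 in Ctrl (log2 change -1.60 ± 0.23, adjusted p = 0.00011), and a harpin-induced protein (At3g44220) fell to 131, 194 and 80.6 in DS, against 335, 649 and 534 in Ctrl (log2 change -1.94 ± 0.30, adjusted p = 0.00022). The harpin-induced protein was read by 3 kept PSs, with changes of -1.94 to 0.01, and only this 1 was called. In the list of proteases, ubiquitin and autophagy 16 of 156 PSs rose and none fell (10% called). The shares called were 5.65% among kept PSs with an informative name and 3.8% among all kept PSs. However, 7 of the 16 are annotated as protease inhibitors. Of the remainder, a peptidase of family S41 (At3g57680) was read by a pair of PSs that rose by 1.53 and 1.37, the brighter one at 22500, 22100 and 21300 in DS and 7890, 6790 and 8200 in Ctrl.

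Ferritin, which stores iron in plastids, was among the brightest risen PSs, with signals of 24000, 21300 and 20600 in DS and 6030, 6830 and 5540 in Ctrl (log2 change 1.84 ± 0.18, adjusted p = 2.2e-06). It was the one called PS among 58 for antioxidant proteins and metal binding. HEL gave 3390, 4020 and 4420 in DS and 1300, 950 and 1020 in Ctrl, without overlap (log2 change 1.86 ± 0.38, adjusted p = 0.0025), and its call was lost without DS replicate 2 or 3 or Ctrl replicate 2 or 3 (adjusted p 0.011 to 0.013). The PS named transposase TPA stood at 7190, 6400 and 6290 in DS and at 1260, 1150 and 1170 in Ctrl, a change of 2.47 ± 0.14 (adjusted p = 2.7e-09). Phytoene synthase, the first committed step of carotenoid synthesis and so upstream of ABA itself, changed by -1.45, with 1040, 927 and 884 in DS and 2780, 2600 and 2420 in Ctrl (adjusted p = 0.0027), and its call was lost without DS replicate 2 or 3 or Ctrl replicate 1 or 2 (adjusted p 0.010 to 0.014).

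The lists that follow had shares of calls at or below the 3.8% of all kept PSs, which is no result about them. Of 101 PSs for heat shock proteins and chaperones 2 rose, CPHSC70-2 by 1.65 and HSP70 by 1.56, and 1 fell (2.97% called), a putative heat shock protein (At5g56010) at -1.10, whose call was lost without Ctrl replicate 1, where the change was -0.94. HSP101 did not pass (log2 change 1.19 ± 0.36, adjusted p = 0.032). Of 43 PSs for photosynthesis and chlorophyll 1 rose, ferrochelatase I by 1.50, and the median of the list was -0.26. Histones and chromatin had no call among 33 PSs, and ribosomal proteins and translation factors had 1 among 59. Fatty acid oxidation and the glyoxylate cycle had no call among 31 PSs. Not on that list, which was built from the tables, 2 PSs named for enzymes of the cycle in the paper's text were called, both singled out after their values were seen: an aconitase PS at 906, 998 and 808 in DS and 217, 241 and 337 in Ctrl (log2 change 1.79 ± 0.31, adjusted p = 0.00063), and a malate synthase PS at 33.6, 14.2 and 14.4 in DS and 333, 331 and 261 in Ctrl, at least 2.24-fold lower in DS (adjusted p = 0.003), whose call was lost without DS replicate 2 or 3 or Ctrl replicate 1 or 2 (adjusted p 0.012 to 0.016). The other malate synthase PS stood at 59.3, 23.9 and 57.8 in DS and 161, 154 and 15.2 in Ctrl and was not called (log2 change -0.73 ± 1.1, adjusted p = 0.73). The 3 reference genes for qRT-PCR changed by 0.02, -0.02 and -0.17, with adjusted p of 0.94, 0.95 and 0.33.

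Among PSs without a name, ranked by fitted log2 change, the most risen one had signals of 1700, 1820 and 1740 in DS, against 38.5, 18 and 36.5 in Ctrl, at least 12.5-fold higher in DS (adjusted p = 1.2e-10). The one chosen as most fallen by the same rank stood at 11.6, 6.55 and 12.0 in DS and at 473, 276 and 246 in Ctrl, at least 2.32-fold lower in DS (adjusted p = 1.6e-07). Another fallen one gave 343, 95.3 and 210 in DS and 2590, 4880 and 4850 in Ctrl (log2 change -4.37 ± 0.57, adjusted p = 5e-05).

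Whether these responses were shared by Cappelli was asked with its own DS and Ctrl arrays. Cappelli had 375 called PSs (1.34% of those tested), 250 risen (0.891%) and 125 fallen (0.445%). In both cultivars 29 PSs rose, 3.87% of the rises of Ofanto and 11.6% of those of Cappelli, and 11 fell, 3.47% of the falls of Ofanto and 8.8% of those of Cappelli. In opposite directions, 13 PSs rose in Ofanto and fell in Cappelli, and 12 fell in Ofanto and rose in Cappelli. The test of the difference itself (the response of Ofanto minus that of Cappelli, same model and thresholds) called 1149 PSs, 4.09% of those tested, 809 (2.88%) with the higher and 340 (1.21%) with the lower response in Ofanto. Centring each array on its median moved this split to 640 and 476. Among the 750 risen PSs 434 had a response above that of Cappelli by this test, and among the 317 fallen ones 108 had a response below it. These PSs were chosen for their change on the same Ofanto arrays that enter the test. That choice favours such differences, so both counts say nothing beside the 4.09% of all kept PSs.

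Individual genes differed in how the cultivars compared. Ferritin moved in opposite directions: it averaged 22000 ± 1810 in DS and 6130 ± 655 in Ctrl in Ofanto (SD, n = 3 each), but 2220 ± 252 in DS and 9630 ± 1740 in Ctrl in Cappelli, where it fell by 2.11 log2 units (adjusted p = 1.6e-06). The difference in response was 3.95 ± 0.25 (adjusted p = 7e-08). MYB4, the LEA protein and LTI30 rose in Ofanto, and their changes in Cappelli were 0.71, 0.46 and 0.48, none of them called, with differences of 3.30, 2.32 and 2.20 that were called. P5CS and the called LTP4 PS rose in both cultivars. P5CS averaged 15300 ± 6100 in DS and 2370 ± 281 in Ctrl in Cappelli, a change of 2.60 ± 0.24, and the difference was not called (-0.65 ± 0.34, adjusted p = 0.25), nor was that of LTP4 (0.34 ± 0.41, adjusted p = 0.67). HEL was near background in Cappelli, at 20.1 ± 8.83 in DS and 41.0 ± 22.2 in Ctrl, so its difference of 2.78 has no exact size. Some genes that rose in Ofanto DS were bright in Cappelli Ctrl without stress. The more changed RD22 PS, for example, averaged 1560 ± 88.6 in DS and 2130 ± 470 in Ctrl in Cappelli, against 4040 ± 211 in DS and 943 ± 242 in Ctrl in Ofanto. The 3′ minus 5′ difference also ran the other way in Cappelli, at 1.87 to 2.02 on its DS arrays and 1.44 to 1.64 on its Ctrl arrays, and with it as a covariate the difference between cultivars was called for 4 PSs with the 3-pair mean, 660 with the ubiquitin pair and 942 with the mean of 7 pairs.

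**Figure D4:**
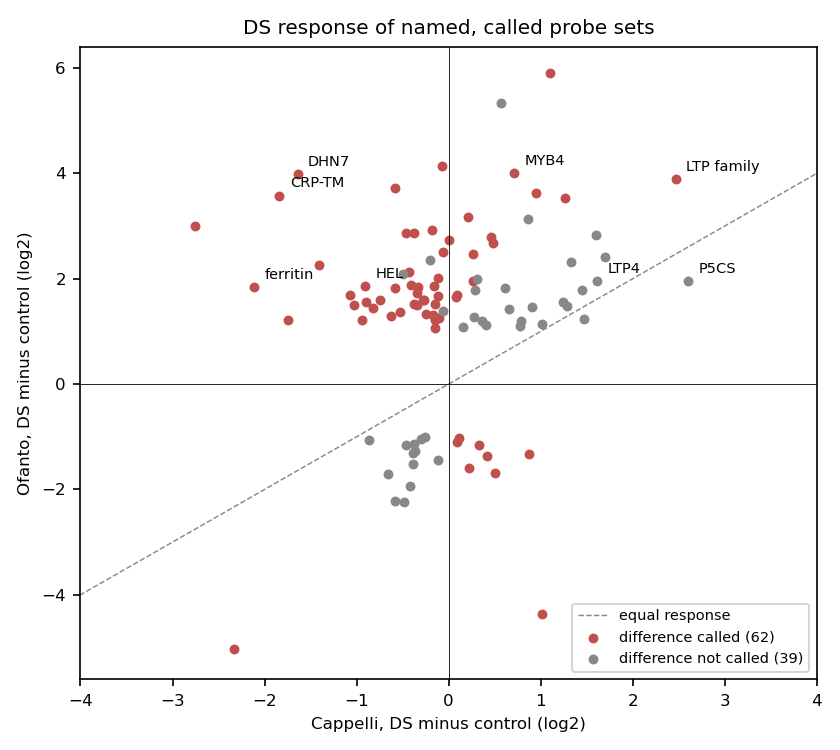
DS minus Ctrl log2 change in Ofanto against the same in Cappelli for named PSs called in Ofanto, with the line of equal response (dashed). Ferritin, DHN7 and CRP-TM lie left of 0 for Cappelli, while P5CS and LTP4 lie on its positive side near the line.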

How the data were processed

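Deposited values were MAS5 signals, an intensity per probe set (PS) on a linear scale, which the authors scaled so that the trimmed mean of every array was 500.3. MAS5 is named in the submitters' processing notes, without a version. The paper analysed RMA values, which these are not. All 24 arrays were used, and 111 control PSs were left out. Signals were taken to log2 with no offset. One limma 3.58.1 model (R 4.3.3) with 8 group means was fitted to the 28072 kept PSs, with 16 residual and 1.97 prior degrees of freedom. The model was tested on simulated data with known changes. The number of arrays, 3 per group, limits the precision.

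Named PSs were those of the paper's drought and qRT-PCR genes, the 25 largest rises and 20 largest falls with an informative annotation and no overlap of arrays (1 PS per annotation), up to 5 called PSs of each list by adjusted p, and the 2 largest rises and falls without a name. The text prints part of these. Members and lists were chosen with earlier results of these data known. Same-numbered DS and control arrays of Ofanto did not deviate together (r of deviations -0.02, 0.03 and 0.01), and nothing ties the numbers to blocks of the design. Alternatives covered filters, an offset of 16, scaling, the arrays in the fit, a replicate block, a covariate for RNA ends, and the t-test of the methods.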

Additional observations from a re-analysis of the deposited data

Results flagged for a closer look

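The response to DS differed between Ofanto and Cappelli in 1149 PSs by the interaction test in limma, and 66 of the 113 named PSs were among them, 55 with the response of Ofanto above that of Cappelli and 11 below. Most of the named PSs were chosen for their change in Ofanto, so their share says nothing beside the 4.09% of all kept PSs. The values that follow are log2 differences, Ofanto response minus Cappelli response. Among dehydration and ABA genes they were 5.62 for DHN7, 5.43 for CRP-TM, 2.77 for the other cold regulated PS, 3.25 for HVA22e, 1.23 for HVA22, 2.97 for the low temperature and salt response protein, 2.32 for LEA, 2.35 for LEA14, 2.2 for LTI30, 2.15 for COR47, 2.55 and 2.3 for RD22, 1.93 for RD19A, 2.67 for P2C-HA and 2.26 for the PP2C At2g29380. Of regulators, MYB4 differed by 3.3, the NAC PS by 4.22, RHSF11 by 2.02, RAP2.12 by 2.26, CIPK3 by 2.07 and a protein kinase (At3g51550) by 1.49. Of lipid transfer proteins, the At3g18280 PS differed by 1.42 and LTP3, at 7.02 ± 3.5 in DS and 44.2 ± 6.94 in Ctrl in Cappelli, by 4.93.

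In metabolism the differences were 2.13 and 1.88 for sucrose synthase, 1.79 for hexokinase 1, 1.59 for the hexose transporter, 5.77 for the aminotransferase BCAT5, 1.86 and 1.85 for the keto acid dehydrogenase, 2.18 for homogentisate dioxygenase, 3.32 for proline iminopeptidase, 1.91 and 1.91 for peptidase S41, 3.95 for ferritin, 2.52 for ferrochelatase I, 2.74 for the ethanolamine-phosphate enzyme, 1.69 for an O-methyltransferase, 3.67 for a cytochrome P450 and 2.64 for aconitase. Other proteins with a higher response in Ofanto were thaumatin-like protein (3.1), HEL (2.78), TPA (2.2), HSP70 (2.46), CPHSC70-2 (1.57), release factor eRF1 (4.32), an armadillo repeat protein (2.57), OSR8 (1.67), a putative protein (2.96), a proline-rich protein (2.4), an extensin (1.36), an RRM protein (1.61), an RNA helicase (1.39), RSZ33 (1.35) and the most risen unnamed PS (4.8). Where signals were near background, as for BCAT5, the NAC PS, and HEL and LTP3 in Cappelli, these values have no exact size. The same holds for PSs near background in Ofanto Ctrl. Among these were DHN7, eRF1, the At3g18280 PS, proline iminopeptidase and homogentisate dioxygenase. The cytochrome P450, the armadillo repeat protein and the most risen unnamed PS were too.

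A lower response in Ofanto was found for cp33 (-1.69), which rose in Cappelli, NADH dehydrogenase subunit B (-3.05), mitochondrial ATP synthase alpha (-2.18), a 2OG oxygenase (-2.18), an extensin (-1.78), the disease resistance-responsive protein (-1.82), PP2C At3g16560 (-1.48), the heat shock protein At5g56010 (-1.2), threonine ammonia-lyase (-1.14) and a pair of unnamed PSs (-5.38 and -2.7). The unnamed PS at -2.7 also fell in Cappelli (log2 change -2.33, adjusted p = 0.0012). It was near background in Ofanto DS and averaged 2.87 in DS and 15.5 in Ctrl in Cappelli. Its difference therefore has no exact size.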

How the results depend on the processing

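The count of 1067 PSs in Ofanto DS stayed within 1.5 times, at 754 to 1086, under the other filters, the offset, both rescalings, a fit of the contrast's groups alone, and the added ubiquitin and 7-pair covariates, and was 799 to 963 with one array left out. Exceptions were the 3-pair RNA end covariate (19 PSs), no minimum fold (2113) and the t-test of the methods with Benjamini-Hochberg adjustment (6, or 869 unadjusted). The called PSs changed more than the count. Of the 1067, 66% were called again with no filter, 66.7% with the contrast's groups alone and 67.4 to 73.3% with 1 array left out. The ubiquitin and 7-pair covariates kept 77.5% and 73.2%. The other filters, the offset and both rescalings kept 90.2 to 93.1%. With Ctrl replicate 1, the one whose description names no drought, as the lone Ctrl, 790 PSs were called, 485 of them among the 1067, the lone array being assumed to vary like the other groups. With the replicate number as a block 1013 were called, 982 of them shared, and 6 of 103 named calls were lost. For the difference between cultivars the count was 865 to 1048 with one Ofanto array left out, 1036 with the replicate block, 556 without a filter, 660 with the ubiquitin covariate, 942 with the 7-pair covariate and 4 with the 3-pair covariate. Of 103 named calls 75 were kept with each Ofanto array left out in turn. Of these, 5 were also kept under the other filters, the offset, both rescalings, the contrast's groups alone, the replicate block and the 3-pair covariate. The t-test of the methods and the ubiquitin and 7-pair covariates did not enter this count of 5.

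Changes turned sign for 4-coumarate-CoA ligase (0.15), HSP101 (-0.06) and OEP16-3 (0.09) with the 3-pair covariate. Values near 0 turned for NADH-ubiquinone oxidoreductase (-0.04 with median centring, -0.02 without DS replicate 3, and -0.07 to 0.1 over the arrays left out), AGL7 (0.03 with quantile normalization, 0.01 without DS replicate 1, and -0.05 to 0.02 over the arrays left out) and cp33 (0.02 without DS replicate 2, and -0.09 to 0.04 over the arrays left out). The causes were not tested. Low signals limit the precision: the median SD was 0.423 among the 7018 dimmest PSs and 0.0855 among the brightest.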
